A study of Bos taurus with 12 samples.

Results

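Fetal fibroblasts, a body cell of the kind whose nuclei are used for cloning, were compared with fertilised embryos at the 8-cell stage in Holstein cattle. The members are the loci at 1 FPKM or more in at least 1 of the 2 groups, 15634 of the 22445 loci listed for the series. FPKM is a count of sequenced fragments scaled to the length of the transcript and the size of the library, so levels are relative and can be compared between genes. The fibroblast group is 3 libraries of bovine fetal fibroblasts harvested with trypsin. The embryo group is 3 libraries, each from a pool of 8 embryos made by in vitro fertilisation (IVF), lysed directly and with their cDNA amplified. No treatment or genetic change is given for either group. The series also holds cloned 8-cell embryos made by somatic cell nuclear transfer (SCNT), with and without overexpression of the histone demethylase KDM5B, which are used here for context only. The labels do not say whether the 3 fibroblast libraries come from separate animals or cultures.

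The deposited table holds 1 value per group and locus, the authors' mean, so no SD, standard error or test can be given and no difference below has a replicate check. The study's design text gives a BGISEQ instrument for fibroblasts and a HiSeq for embryos, while the labels' protocol names a HiSeq throughout. Only the embryos are described as amplified. Cell type therefore cannot be told apart from instrument and amplification in this comparison. In bulk RNA, fewer cells of a type and less RNA per cell cannot be told apart either.

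Loci carried 17643 Ensembl gene IDs and 4802 IDs of the authors' own, without gene names. The gene table used here has 0 entries in its Ensembl column, so the labels of both groups could not be checked against marker genes, and pathways, positions and sequences are not analysed here. What can be described is how the RNA of each group is spread over loci, and how far a locus's level in a body cell corresponds to its level in the embryo.

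As background, a fibroblast is a differentiated connective tissue cell that transcribes its own genome and secretes extracellular matrix. A cleaving cattle embryo starts out on RNA stored in the egg and takes over transcription from its own genome around the stage sampled here. Its RNA at that time is a mixture of egg-derived and newly made transcripts, which these data do not separate.

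Embryo RNA was concentrated in fewer loci than fibroblast RNA. The 10 most abundant loci held 25.2% of the summed FPKM of the IVF embryos and 9.02% of that of the fibroblasts. The 100 most abundant held 46.3% and 34.3%, and the 1000 most abundant 76.7% and 69.4%. In embryos 137 loci made up 50% of the sum, against 262 in fibroblasts, and 90% was reached with 2799 and 4097 loci. The curves came together only in the low range, where 99% of the sum took 9393 loci in embryos and 9611 in fibroblasts.

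**Figure D1:**
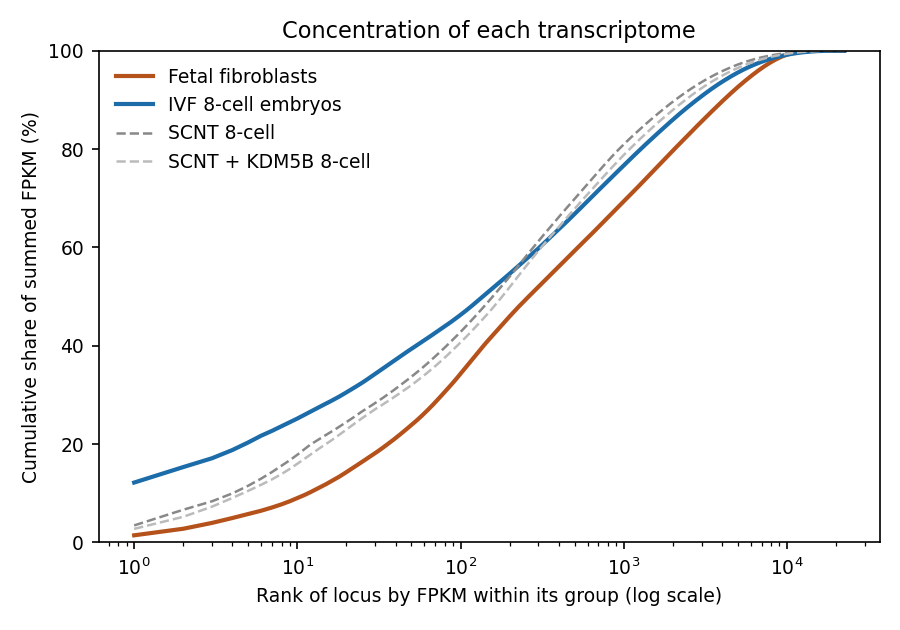
Cumulative share of the summed FPKM (y axis, percent) against the rank of a locus by FPKM within its group (x axis, log scale), for the 4 group means. The IVF embryo line starts at 12.2% and lies above the fibroblast line, which starts at 1.45%; the dashed lines of cloned embryos start at 3.46% and 2.76%.

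A single locus accounted for much of the steep start of the embryo curve. It stood at 94337 FPKM in IVF embryos, 12.2% of the whole sum, and at 2520 FPKM in fibroblasts, 0.477% of the sum, where it ranked 20th. In the cloned embryos it stood at 30632 FPKM and, with KDM5B, at 21778, which are ranks 1 and 2. The locus was thus among the most abundant in all 4 groups, and its share was highest in the IVF embryos, the group whose values singled it out. Its single value there is a mean of 3 libraries, and whether it was equally high in each cannot be seen. Without it, the 10 most abundant of the remaining embryo loci held 15.7% of the remaining sum.

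The evenness of a transcriptome can be put as an effective number of loci, the number of equally abundant loci that would give the same Shannon entropy. It was 2056 in fibroblasts and 896 in IVF embryos. With the single most abundant locus of each group left out it was 2130 and 1508, and with the 10 most abundant of each left out 2511 and 2288. Fibroblasts and IVF embryos were thus much closer in evenness once their most abundant loci were set aside. Cloned embryos, with all loci included, had 1061 and, with KDM5B, 1221. Without their most abundant locus they had 1165 and 1311, and without their 10 most abundant 1682 and 1829. The IVF embryos were thus the least even of the 3 embryo groups with all loci included, and the most even after either omission.

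The most abundant locus of fibroblasts had no comparable weight. It stood at 7655 FPKM, 1.45% of the fibroblast sum, and at 3452 FPKM in IVF embryos, where it ranked 19th. On the deposited scale no fibroblast locus reached 10000 FPKM, while 6 loci did in IVF embryos. The embryo column summed to 1.47 times the fibroblast column there, so this contrast depends on the scale.

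Counts of loci at each level of FPKM also differed between the groups. These counts are on the deposited scale, where the embryo column summed to 1.47 times the fibroblast column. The counts by band were not repeated at equal sums, but the number of loci at 1 or more was. As deposited it was 11616 in fibroblasts and 12582 in embryos. With both columns rescaled to the same sum it was 12541 and 13384. Fibroblasts had more loci in the moderate range of 10 to under 100 FPKM, 5248 against 4401 in IVF embryos. Embryos had more loci between 100 and 1000 FPKM, 1003 against 683. They also had more loci in the low range, 5037 against 3266 at 0.1 to under 1 FPKM and 7099 against 5598 at 1 to under 10. At 0 were listed 4520 loci in fibroblasts and 2722 in embryos. Above 0 and under 0.1 FPKM fibroblasts had more loci, 3043 against 2104, and at 1000 FPKM or more the counts were 87 in fibroblasts and 79 in embryos. On the deposited scale, embryos thus had more loci from 0.1 to under 10 and from 100 to under 1000 FPKM, and fibroblasts more in the other bands.

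Locus type set part of this pattern. Among the authors' own loci, 768 reached 1 FPKM in fibroblasts and 2411 in IVF embryos, that is 16.0% and 50.2% of the 4802. Among Ensembl loci the order was the other way, with 10848 (61.5%) in fibroblasts and 10171 (57.6%) in embryos. The surplus of fibroblast loci at 10 to under 100 FPKM was present in Ensembl loci alone, 5134 against 4097. So was the surplus of embryo loci at 0.1 to under 1, 3430 against 2073, and at 100 to under 1000, 934 against 669. At 1 to under 10 FPKM the Ensembl counts were close, 4960 in fibroblasts and 5062 in embryos, and the authors' own loci made up most of the difference, with 638 and 2037. In each of the 3 embryo groups the authors' own loci held a larger share of the summed FPKM than in fibroblasts, 4.49% in IVF, 5.98% in SCNT and 5.97% with KDM5B, against 2.31%. How the authors assembled these loci, and from which libraries, is not given in the sources used here.

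**Figure D2:**
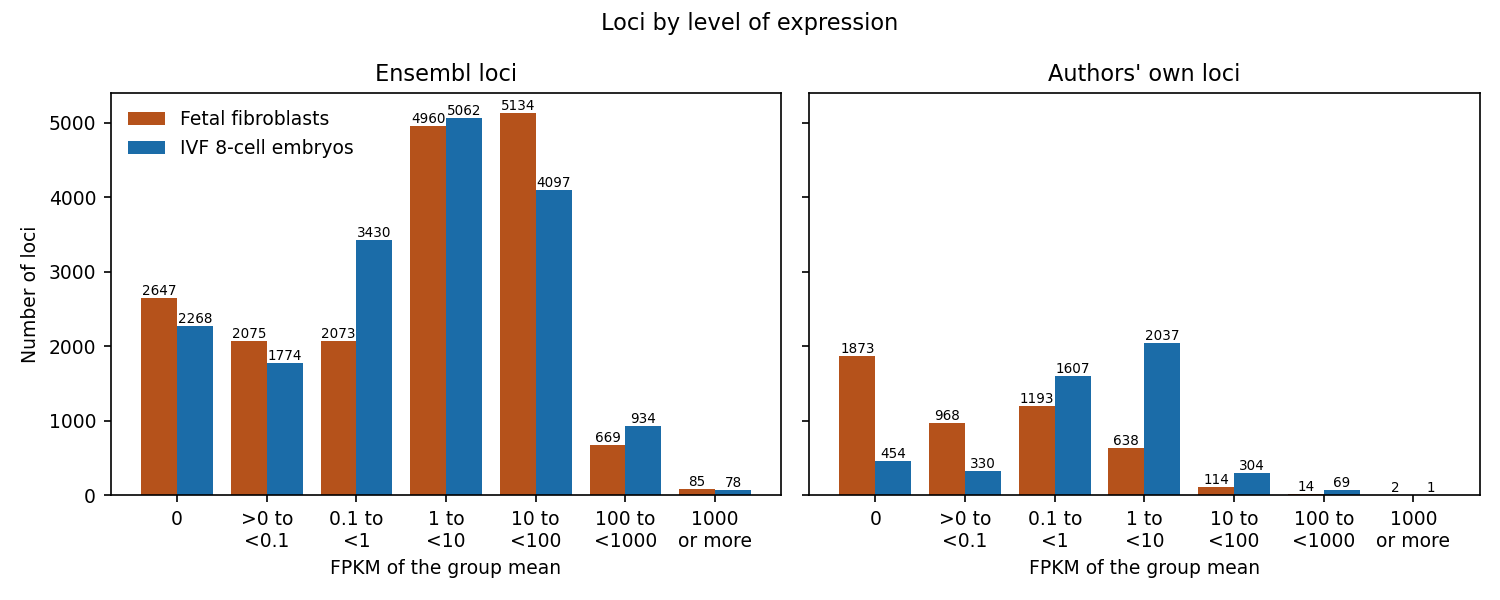
Number of loci (y axis) at each level of the group mean in FPKM (x axis), for Ensembl loci and for the authors' own loci, in fibroblasts and IVF 8-cell embryos. Fibroblasts have 5134 Ensembl loci at 10 to under 100 FPKM against 4097 in embryos, while among the authors' own loci 1873 are listed at 0 in fibroblasts against 454.

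Most loci lay far apart between the groups. On the scale of log2(FPKM + 1), 5559 loci (35.6% of 15634) were higher in fibroblasts by 2-fold or more. The embryo side held 6402 (40.9%) by the same measure. Only 3673 (23.5%) lay within 2-fold. At least 4-fold apart were 3683 loci (23.6%) on the fibroblast side and 3548 (22.7%) on the embryo side. At 16-fold the counts were 1114 and 1040, at 256-fold 53 and 73, and at 1024-fold 15 and 15. The quartiles of the difference, fibroblasts minus IVF, were -1.84 and 1.87 and its SD over loci was 2.79.

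The balance between the directions depended on the scale and on the kind of locus. The median difference over all loci was -0.31, and with that median set to 0 the counts at 2-fold were 6144 higher and 5319 lower in fibroblasts. At 4-fold the centred counts were 4237 and 2988, and at 16-fold 1381 and 837. Without centring, Ensembl loci alone had a median difference of 0.24, with 5274 higher and 4594 lower at 2-fold. The authors' own loci had a median of -1.32, with 285 higher and 1808 lower. The excess of lower loci over the whole list was therefore made up by the authors' own loci, which are 17.3% of the loci compared. With columns rescaled to the same sum (TPM), which raises the median difference by 0.44, 6691 loci were higher and 6122 lower. The summed FPKM of the embryo column was 1.47 times that of the fibroblast column before rescaling. TPM also changes which loci reach 1 in either group, to 16569.

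**Figure D3:**
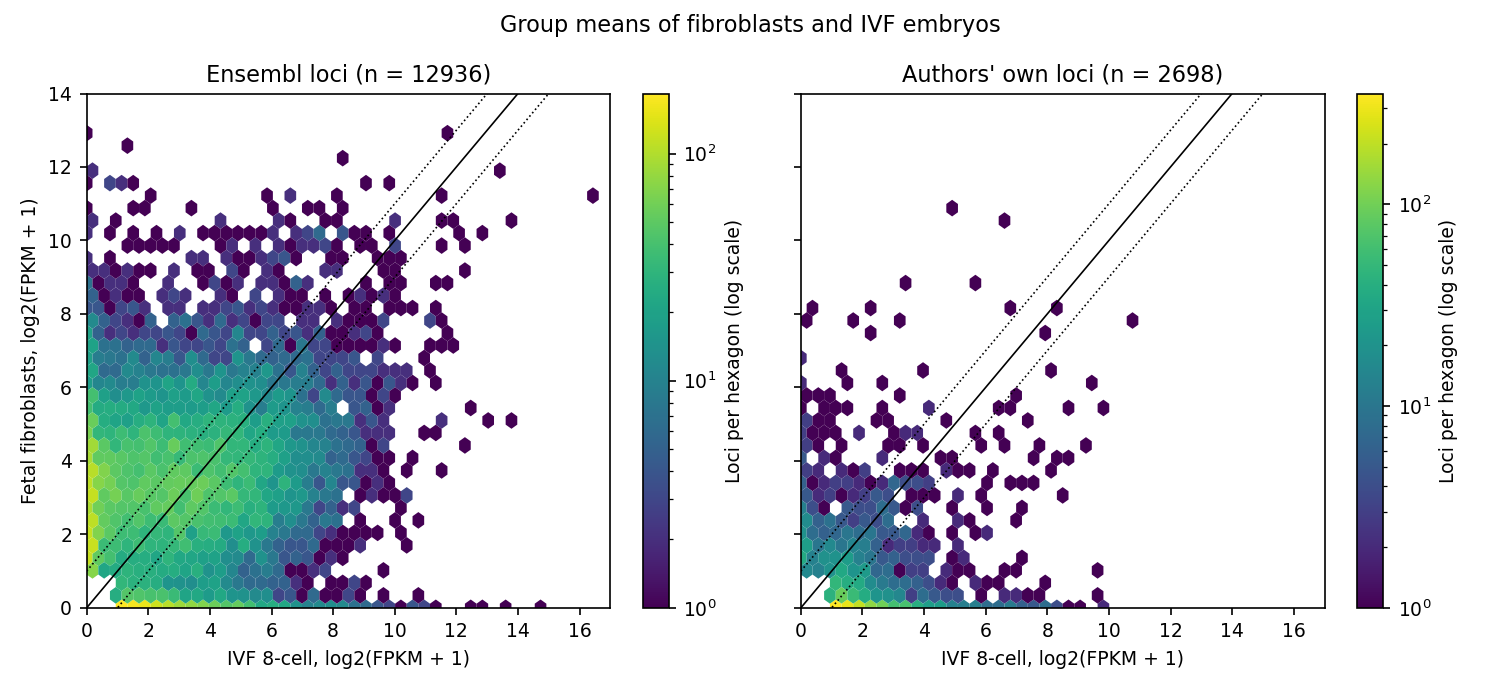
Fibroblast against IVF embryo means, both as log2(FPKM + 1), for 12936 Ensembl loci and 2698 of the authors' own loci; colour gives loci per hexagon on a log scale, the solid line marks equal values and the dotted lines a 2-fold difference. Only 23.7% of Ensembl loci and 22.4% of the authors' own loci lie within 2-fold, and many lie along either axis.

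A locus's level in one group corresponded only loosely to its level in the other. The embryo median was 7.29 FPKM, with quartiles of 1.35 and 30.7, for loci whose fibroblast level was 10 to under 100. For loci at 100 to under 1000 in fibroblasts it was 13.9, with quartiles of 1.42 and 72.8. The 87 loci at 1000 FPKM or more in fibroblasts had an embryo median of 100.7, with quartiles of 3.43 and 290. In the other direction, the fibroblast median was 8.92 for embryo levels of 10 to under 100. It was 18.4 for embryo levels of 100 to under 1000 and 74.8 for the 79 loci at 1000 FPKM or more. Of the loci compared, 4069 (26.0%) stood in the same band in both groups. All of these are in the 4 bands from 1 FPKM upwards, since the choice of loci leaves none that are under 1 in both groups.

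Correlations across loci were weak and depended on which loci were included. Over the 15634 loci, Pearson's r of log2(FPKM + 1) was 0.21 and Spearman's rho 0.15. Over all 22445 loci, which adds those under 1 FPKM in both groups, r was 0.45 and rho 0.45. Over the 8564 loci at 1 FPKM or more in both groups, r was 0.28, and over the 2757 at 10 or more in both it was 0.29. These are descriptions across loci, which are not replicates. Limiting loci by a level in either group removes those low in both and so lowers r.

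**Figure D4:**
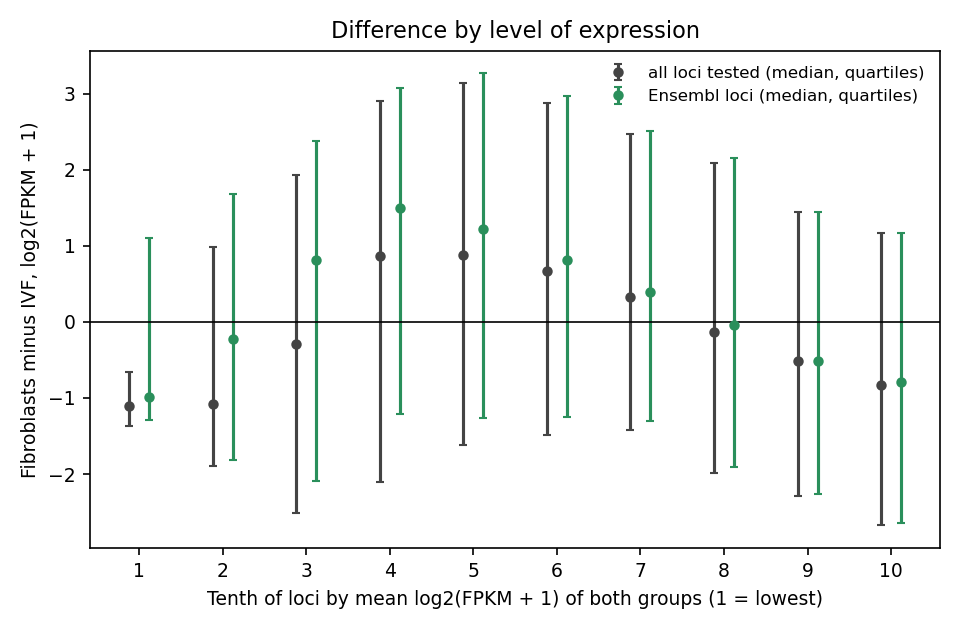
Fibroblast minus IVF difference of log2(FPKM + 1) (y axis) in 10 equal classes of loci ordered by their mean over both groups (x axis, 1 = lowest); points are medians and bars run between the quartiles, for all loci compared and for Ensembl loci alone. Medians over all loci are above 0 in classes 4 to 7 and -0.82 in the highest class, and the bars span 0 in each class from class 2 upwards.

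The direction of the difference varied with the level of expression. Loci were put in 10 equal classes by the mean of their log values over both groups. In the lowest class the median difference was -1.11, and 54.1% of the loci were the authors' own. In classes 4 and 5, at geometric means of 2.23 to 5.07 FPKM, the medians were 0.87 and 0.88. There 764 and 763 loci were at least 2-fold higher in fibroblasts and 512 and 479 lower. In the highest class, above a geometric mean of 35.9 FPKM, the median was -0.82, with 414 higher and 736 lower. Ensembl loci alone followed a similar course, with 1.49 in class 4 and -0.79 in the highest. They differed in class 3, where their median was 0.82 against -0.28 over all loci. In class 8 they were nearly balanced, with 552 higher in fibroblasts and 553 lower. Over all loci and as deposited, more loci were higher in fibroblasts in classes 4 to 7, up to a geometric mean of 11.4 FPKM. In classes 8 to 10 more were higher in embryos, by a small margin in class 8 (593 against 563). Centring on the median of all loci adds 0.31 to each median. The medians over all loci in classes 3 (-0.28) and 8 (-0.13) then turn positive, so the point of crossing depends on the scale. The requirement of 1 FPKM in either group bounds the differences possible in the lowest classes.

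The most abundant transcripts of the groups overlapped in part. Of the 10 most abundant loci 1 was shared, of the 100 most abundant 17, and of the 1000 most abundant 225. For scale, IVF embryos shared 40 of their 100 most abundant loci with SCNT embryos and 42 with those given KDM5B. Fibroblasts shared 30 and 28 of theirs with the same groups. Of the 17 shared loci, 9 were at least 2-fold lower in fibroblasts, 2 at least 2-fold higher and 6 within 2-fold. Together they held 20.02% of the embryo sum and 6.53% of the fibroblast sum. Most of that embryo share is the single most abundant locus described above.

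The 100 most abundant loci of fibroblasts, all at 936 FPKM or more there, spread over the whole range of embryo levels. Their median in IVF embryos was 109 FPKM, and the 10th and 90th percentiles were 0.596 and 2910. In embryos 52 of them reached 100 FPKM, 14 were under 1 and 4 were listed at 0. The 100 most abundant loci of embryos, all at 857 FPKM or more there, had a fibroblast median of 72.1 FPKM, with percentiles of 0.012 and 1298. In fibroblasts 42 of them reached 100 FPKM, 16 were under 1 and 10 were listed at 0. Both lists held 2 of the authors' own loci.

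**Figure D5:**
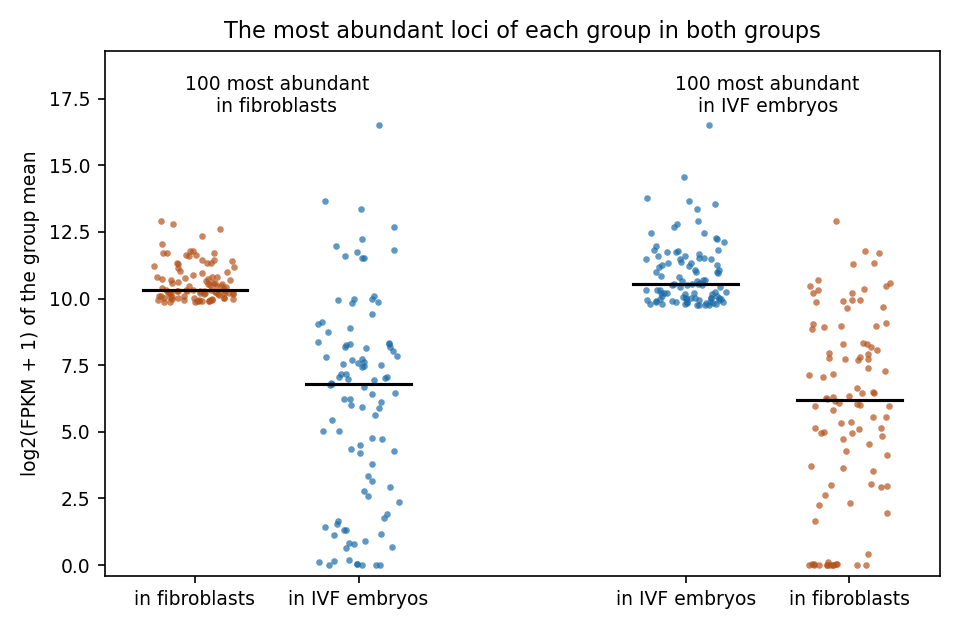
Levels as log2(FPKM + 1) (y axis) of the 100 most abundant loci of each group in both groups; each point is a locus and the line is the median. In the other group the points spread down to 0, with 14 fibroblast loci under 1 FPKM in embryos and 16 embryo loci under 1 FPKM in fibroblasts.

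The IDs with the largest differences show the extremes. ENSBTAG00000017312.3 was the second most abundant locus of fibroblasts, at 7070 FPKM, and was listed at 0 in IVF embryos. Cloned embryos had 0.19 FPKM of it and, with KDM5B, 0.343. ENSBTAG00000021466.5 ranked 5th in fibroblasts, at 4287 FPKM, and stood at 0.0867 in IVF embryos. Both were abundant in the body cell and under 1 FPKM in each of the 3 embryo groups.

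The opposite extremes were embryo loci listed at 0 in fibroblasts. ENSBTAG00000034346.2 ranked 2nd in IVF embryos, at 24421 FPKM or 3.15% of the sum, and ENSBTAG00000027348.3 ranked 5th, at 11949 FPKM or 1.54%. In SCNT embryos they stood at 5808 and 2414 FPKM, and with KDM5B at 5529 and 1633. Both were thus high in all 3 embryo groups. Their level was highest in the fertilised group, but they were chosen by their values there, which favours that order. A value of 0 in the authors' mean is a listing, so no fold is given against it.

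Loci well expressed in one group and nearly silent in the other numbered 1309 on the fibroblast side and 979 on the embryo side. The first were at 10 FPKM or more in fibroblasts and under 1 in IVF embryos, 21.8% of the 6018 fibroblast loci at that level, and held 18.9% of the fibroblast sum. The second were at 10 or more in embryos and under 1 in fibroblasts, 17.9% of the 5483 embryo loci at that level, and held 16.8% of the embryo sum. The authors' own loci were 3.06% of the first and 26.3% of the second. Among Ensembl loci alone the counts were 1269 and 722. At 100 FPKM or more against under 1, there were 161 loci on the fibroblast side and 162 on the embryo side. Of these, 157 and 117 were Ensembl loci and 4 and 45 the authors' own. All these counts are on the deposited scale, where the embryo column summed to 1.47 times the fibroblast column. None was repeated at equal sums.

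Over all loci, 20.1% were listed at 0 in fibroblasts and 12.1% in embryos. Of the embryo loci at 10 FPKM or more, 380 (6.93%) were listed at 0 in fibroblasts. Of the fibroblast loci at that level, 214 (3.56%) were listed at 0 in embryos, so the order was the same as over all loci. The authors' own loci were 153 of the 380 and 10 of the 214, and Ensembl loci alone gave 227 and 204. In the embryo loci listed at 0 in fibroblasts lay 11.3% of the embryo sum, and in the reverse class 4.31% of the fibroblast sum. The 2 embryo IDs named above are part of the first of these.

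The loci shared by both groups carried most of the RNA of each. The 8564 loci at 1 FPKM or more in both were 73.7% of the fibroblast loci at that level and 68.1% of the embryo loci. They held 79.5% of the fibroblast sum and 81.6% of the embryo sum. On the deposited scale their median levels were close, 11.6 FPKM in fibroblasts and 11.2 in embryos, and the median difference was -0.02. Even so, 2746 of them were higher in fibroblasts by 2-fold or more and 2789 were lower. At 100 FPKM or more in both stood 189 loci, 24.5% of the fibroblast loci and 17.5% of the embryo loci at that level. Of them 56 were at least 2-fold higher in fibroblasts and 54 lower. The embryo column summed to 1.47 times the fibroblast column, so the close medians and the balance of these counts depend on the scale. Neither was repeated at equal sums for these classes.

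The cloned embryos gave values for the same classes that had no part in choosing them. Of the 979 embryo loci under 1 FPKM in fibroblasts, 918 (93.8%) reached 1 FPKM in SCNT embryos and 957 (97.8%) with KDM5B, with medians of 5.68 and 7.64 FPKM. Their median in IVF embryos, which chose them, was 25.2. Of the 1309 fibroblast loci under 1 FPKM in IVF embryos, 298 (22.8%) reached 1 FPKM in SCNT embryos and 350 (26.7%) with KDM5B, with medians of 0.173 and 0.24. Over all loci compared, which include many at low levels, 65.0% and 69.8% reached 1 FPKM in these groups. That is not a like base for the 1309 loci, which were chosen for being under 1 FPKM in IVF embryos. Of all 3052 loci at 1 FPKM or more in fibroblasts and under 1 in IVF embryos, the 1309 included, 21.4% and 24.5% did. Of the 2757 loci at 10 FPKM or more in both fibroblasts and IVF embryos, 99.7% and 99.96% did. Their medians were 40.9 FPKM in SCNT embryos and 46.1 with KDM5B, against 39.9 in IVF embryos. Beside these, the 979 embryo loci were reached somewhat less often in clones and stood further below their IVF level. All 3 embryo groups share stage, direct lysis and cDNA amplification as well as, per the design text, the instrument, so what they share with each other cannot be put down to stage alone.

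The version suffix of the Ensembl IDs, which counts revisions of a gene model, moved with detection. Of the 1676 IDs with suffix 1, 38.1% reached 1 FPKM in fibroblasts and 41.1% in embryos. Of the 7268 with suffix 5, 67.1% and 60.9% did. The median difference was -0.22 for suffix 1, -0.31 for suffix 2, 0.22 for suffix 3, 0.26 for suffix 4, 0.36 for suffix 5 and -0.44 for the 267 compared loci with suffix 6. The quartiles of all 6 classes spanned 0. What part gene model quality has in the differences was not tested.

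The threshold of 1 FPKM fell within a dense part of the list. In the 264 loci whose higher value was 1 to under 1.1 FPKM, the embryo value was the higher in 211. In the 290 loci just outside, at 0.9 to under 1, it was the higher in 215. The 6811 loci left out, of which 1006 were listed at 0 in both groups, carried little RNA: the loci kept held 99.9% of the fibroblast sum and 99.8% of the embryo sum.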

How the data were processed

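RNA sequencing libraries of fetal fibroblasts and IVF 8-cell embryos, 3 each per the labels, were grouped by title, because in fibroblasts the sample group field reads SCNT embryos. The authors deposited FPKM as 1 column per group. Each column was taken as a mean of 3 libraries, since 100% of fibroblast and 99.9955% of IVF values were whole multiples of 0.01 divided by 3 (tolerance 0.001 of a step). RSEM 1.2.12, HISAT 0.1.6, Bowtie2 2.2.5, bcl2fastq 2.16, StringTie 1.0.4 and the build UMD 3.1 appear in the submitters' processing notes, without roles. Read totals are not given, so depth and its precision are unknown.

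Differences of log2(FPKM + 1) were counted at 2-fold and 4-fold, as deposited and centred on their median. The limma test and the gene lists planned could not be used, for lack of library values and gene names: the gene table, of assembly ARS-UCD2.0, has 37063 entries and 0 Ensembl IDs. The rule for names without symbols took, in each direction, the 2 Ensembl IDs that differed most; the most abundant locus of each group was singled out after its values were seen, and is given by rank. Bands and classes of level were set with values in view. The loci compared and the lists were chosen with earlier results of these data known. Alternatives were pseudocounts of 0.1 and 5, other filters, TPM, quantile normalization, locus types and leaving out the most abundant loci. The counting code was tested on the IVF column copied into both groups, with exact 4-fold changes set in 200 loci, and found those 200. Python 3.11.15, numpy 2.4.6, pandas 2.3.3 and matplotlib 3.10.9 were used.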

Additional observations from a re-analysis of the deposited data

How the results depend on the processing

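Of 71 values recomputed for counts, medians, shares and correlations, 51 kept their direction and size (counts within 1.5 times), 17 moved further and 3 medians turned sign. The 51 include values that could not change. These are the counts without a filter, since a 2-fold difference on this scale already needs 1 FPKM in a group, and rho at other pseudocounts. At a pseudocount of 5, 3808 loci were 2-fold lower in fibroblasts, 1883 were 4-fold higher and 1907 4-fold lower. With a pseudocount of 0.1, 5493 were 4-fold lower and Pearson's r was 0.12. Keeping the loci whose mean reached 5 FPKM left fewer loci, 3610 of them 2-fold lower. The following were chosen after seeing the data, the median difference under every setting included. The median turned positive at a mean of 5 FPKM (0.067), as TPM (0.12) and for Ensembl IDs only (0.24). It was -0.18 at a pseudocount of 5 and -0.070 without a filter. The authors' own loci alone, so fewer loci, gave 285 and 1808 loci at 2-fold, 131 and 753 at 4-fold, and a median of -1.32. Without the 10 most abundant loci of either group, at the same sum, the median was -0.10. Without its most abundant locus, the embryo group held 15.7% of its sum in the next 10 loci. Without a filter r was 0.45 and rho 0.45. No paired analysis was possible because each group has a single column of averages; for the same reason no replicate could be left out. Leaving out mitochondrial genes and gene list medians were not run, for lack of gene names. Whether a single library set any value given cannot be seen from averages, and the cause of the moved values was not tested where none is named.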
